A study of Homo sapiens with 6 samples.

Results

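The 40 genes described here encode parts of the RNA polymerase I machinery and proteins of the nucleolus that turn ribosomal RNA into ribosomes. They were taken by name from a list, and all 40 were found among the 20333 gene intervals of the deposited table, each with at least 10 counts in a library. Nascent transcription was measured by PRO-seq, in which polymerases engaged on the DNA of permeabilised cells extend their transcripts with labelled nucleotides and the labelled RNA is sequenced. The cells were T47D, an established human breast cancer line of luminal type, given as ERpos HER2neg in the labels and grown in growth factor-complete medium. For 5 h they received DMSO, the solvent, or 500 nM GDC0068, which inhibits the catalytic activity of the AKT kinases, or 100 nM INY-05-040, a compound that makes cells break down their AKT proteins, labelled Degrader. Each arm had 2 libraries, numbered 1 and 2, from 2 independent experiments, and all came from this single cell line. The study set the doses so that signalling downstream of AKT was suppressed to a comparable degree, but the doses of the drugs differ, and a comparison of the drugs is a comparison at these doses.

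RNA polymerase I copies the repeated ribosomal RNA genes into a long precursor. UBTF and a selectivity factor built from TAF1A, TAF1B, TAF1C and TAF1D mark the promoter, and RRN3 makes the polymerase able to start there, a step known to respond to growth signals, AKT and mTOR among them. The precursor is modified by particles that carry small nucleolar RNAs, of the box C/D kind for methylation and the box H/ACA kind for pseudouridine, and is cut and folded by assembly factors into the small and the large ribosomal subunit. The genes for all these proteins are transcribed by RNA polymerase II, so their counts report the work of polymerase II on them and not that of polymerase I.

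Library totals lay between 25371819 and 32192576 counts, and the 40 genes took 0.190% to 0.237% of a library. Their counts ran from 177 for NOP10 to 7120 for NPM1, at which counting error alone is 7.52% and 1.19%. Replicates of an arm differed by more than sampling noise, with a chi-square per degree of freedom of 5.01 to 6.95. All 10 luminal markers examined were transcribed, at 12.3 to 1370 CPM (counts scaled to the size of the library), while 10 of 11 markers of fibroblasts, immune cells and endothelium have no row among the intervals used here. The remaining one, CD68, averaged 80.4 CPM in DMSO, 65.1 CPM with GDC0068 and 59.7 CPM with Degrader, and its part in the results was not tested. No spike-in counts were used, so changes are measured against the bulk of genes. With 2 libraries per arm, the p-values set each difference between arms against an estimate of the spread between replicate libraries. Where the experiment is not entered in the fit, that spread also holds the difference between the experiments. Among the 40 intervals, 16 overlap another interval, and the use of strand in counting is not given, so reads could pass between such neighbours.

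Under Degrader, most genes of the set were transcribed less. edgeR's quasi-likelihood test, adjusted by the Benjamini-Hochberg method over all 19902 genes tested, called 26 of the 40 lower and 0 higher, while 7.88% of all genes tested were called lower and 7.39% higher. At an unadjusted p under 0.05 there were 31 of the 40, all lower, where 15.2% of all genes tested were lower at that p. DESeq2 called 21 lower and limma-voom 26, and both called 0 higher. Of the genes they tested, DESeq2 called 7.11% lower and limma-voom 7.98%. With the experiment entered as a replicate block edgeR called 31 lower and 0 higher, with 15.7% of all genes tested called lower and 15.1% higher in that fit. The median log2 fold change of the 40 genes was -0.27, against -0.0014 for all genes tested, and single genes ranged from -0.66 for BOP1 to 0.08 for TAF1C. Both Degrader libraries lay below both DMSO libraries for 33 of the 40, compared with 29.2% of all genes tested. None of the 40 had both Degrader libraries above both DMSO libraries, a position held by 29.3% of all genes tested. The number called lower came to 11 without DMSO replicate 1 and to 11 without Degrader replicate 2, fits in which the share of all genes called lower was 2.28% and 2.38%.

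Fewer of the genes were called under GDC0068. edgeR gave 8 of the 40 lower and 0 higher, with 1.88% of all genes tested called lower and 1.70% higher. The 8 genes were POLR1A, NPM1, NOLC1, NOP56, NOP58, UTP20, NOP2 and BOP1. The comparisons of both drugs use the same DMSO libraries. Both GDC0068 libraries lay below both DMSO libraries for 27 of the 40 (24.0% of all genes tested) and above both for 3 (26.1%). The median log2 fold change under GDC0068 was -0.19, against 0.01 for all genes tested, with a range from -0.56 for RRP9 to 0.29 for NOP10. When the experiment was entered as a replicate block, the count under GDC0068 rose to 20 lower and 1 higher, NIP7, with 8.91% and 8.87% of all genes tested called lower and higher in that fit. Without DMSO replicate 1 or without GDC0068 replicate 2, 0 of the 40 were called by edgeR, in fits that called 0.0802% and 0.271% of all genes lower. Without DMSO replicate 2 there was 1 call and without GDC0068 replicate 1 there were 5, with 0.361% and 0.802% of all genes called lower. At an unadjusted p under 0.05 there were 21 of the 40, 20 of them lower (9.55% of all genes tested were lower at that p). DESeq2 and limma-voom called 7 and 8, all lower, with 2.53% and 1.90% of the genes they tested called lower.

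**Figure D1:**
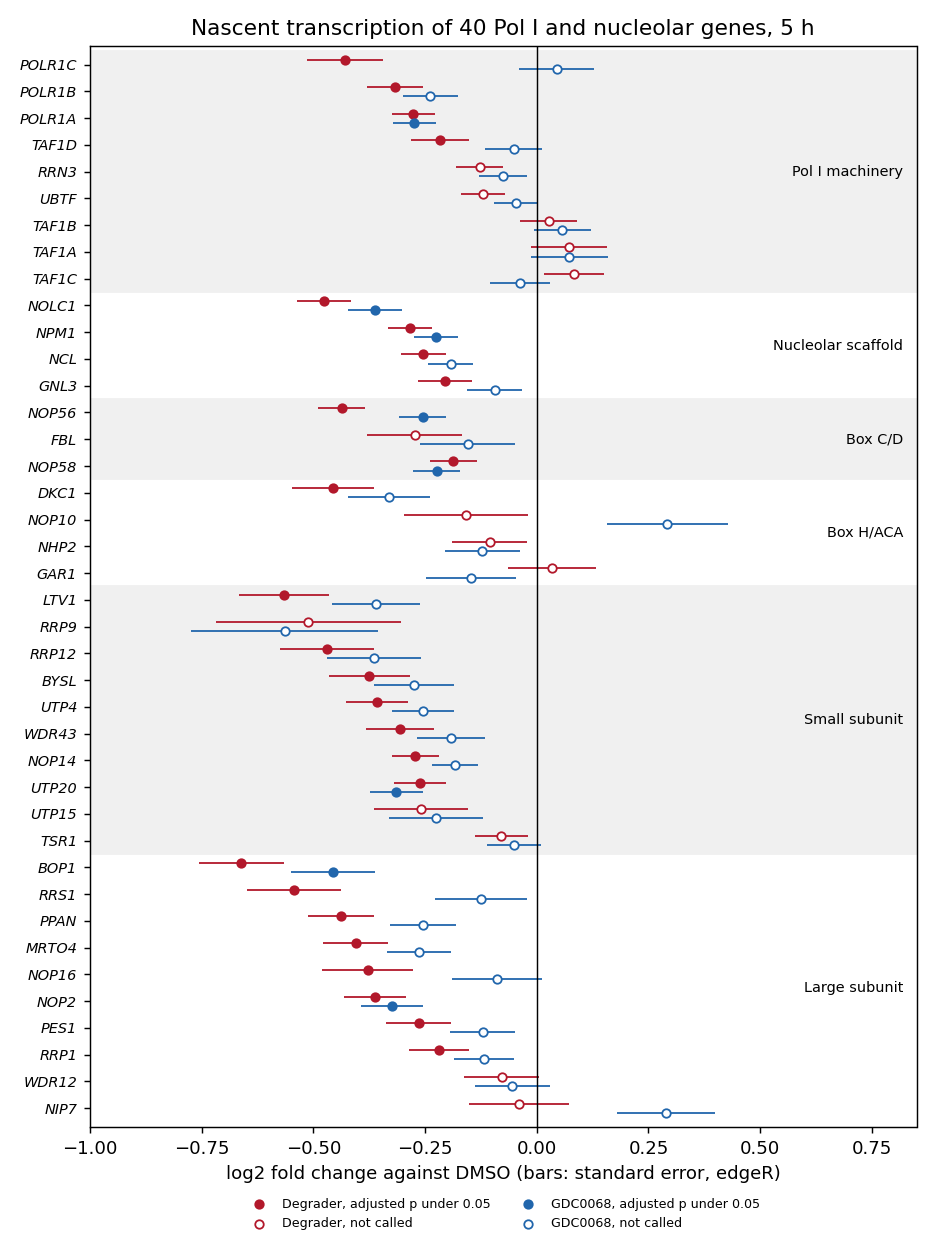
Log2 fold change against DMSO (horizontal axis, bars are the standard error from edgeR) for each of the 40 genes, grouped by role, under Degrader (red) and GDC0068 (blue); filled points have an adjusted p under 0.05. The 26 filled red points and the 8 filled blue points all lie left of 0, and POLR1C, NOP10 and RRS1 show the widest gaps between the drugs.

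Between Degrader and GDC0068, edgeR called 0 of the 40 genes, with 0.151% of all genes tested called lower and 0.116% higher under Degrader. At an unadjusted p under 0.05 there were 8, all lower under Degrader (7.83% of all genes tested). DESeq2 and limma-voom each called 1, POLR1C, with 0.505% and 0.136% of the genes they tested called lower. The fit with the replicate block called 9, all lower, where 5.35% of all genes tested were called lower and 5.03% higher. The median log2 fold change between the drugs was -0.10, against -0.0038 for all genes tested, and 34 of the 40 lay below 0 (51.1% of all genes tested).

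**Figure D2:**
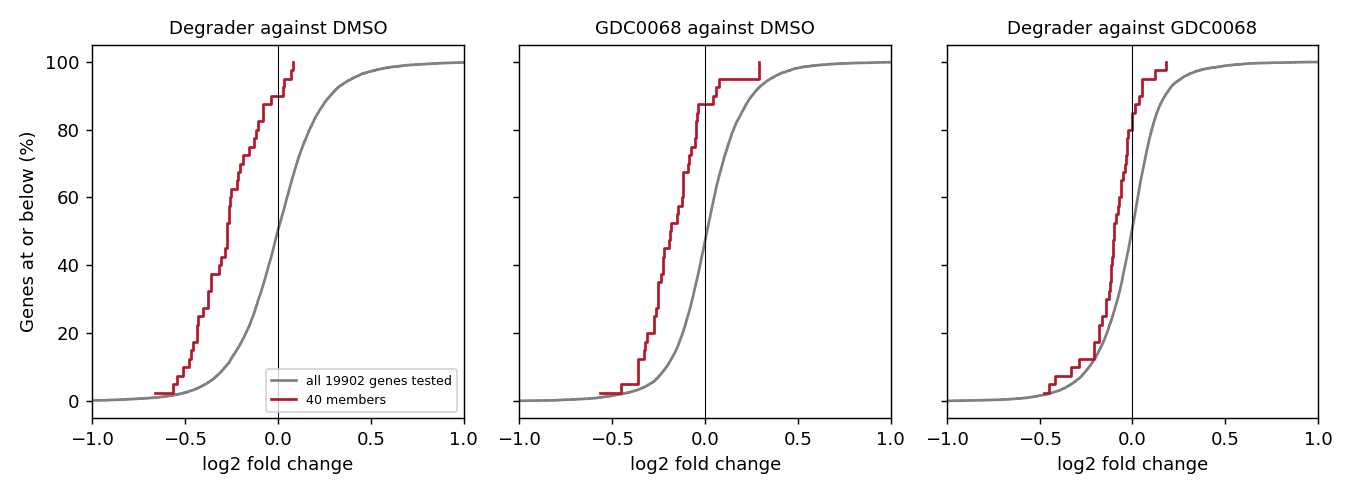
Cumulative share of genes (vertical axis, percent) at or below each log2 fold change (horizontal axis, shown from -1 to 1) for the 40 genes (red) and all 19902 genes tested (grey) in the 3 comparisons. At 0, 90.0% of the 40 genes lie below under Degrader and 87.5% under GDC0068, where the values for all genes are 50.3% and 47.4%.

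Transcription of the genes for the polymerase I machinery fell in part. Under Degrader, 4 of these 9 genes (POLR1A, POLR1B, POLR1C and TAF1D) were called lower, and under GDC0068 only POLR1A was. Of all genes tested, 7.88% and 1.88% were called lower. The group's median log2 fold change was -0.13 under Degrader and -0.05 under GDC0068. POLR1A encodes the largest subunit of polymerase I (chromosome 2, 86026328 to 86105886, minus strand, hg38 per the submitters' processing notes). In replicates 1 and 2 it stood at 106 and 104 CPM in DMSO, 88.3 and 85.8 CPM with GDC0068 and 88.2 and 85.6 CPM with Degrader. Both drug arms lay below DMSO and overlapped each other. The log2 fold change was -0.28 under Degrader (edgeR adjusted p = 0.00371, SE 0.0488) and -0.27 under GDC0068 (edgeR adjusted p = 0.0150, SE 0.0489), and between the drugs the 95% interval ran from -0.11 to 0.11. POLR1B, the second-largest subunit, gave 41.7 and 42.0 CPM in DMSO, 36.0 and 35.1 CPM with GDC0068 and 34.1 and 33.1 CPM with Degrader. Its arms did not overlap, and it dropped by 0.32 (log2) under Degrader (edgeR adjusted p = 0.00638, SE 0.0620), while the value of -0.24 under GDC0068 was not called (edgeR adjusted p = 0.0583; 0.00517 with the replicate block).

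POLR1C encodes a subunit that polymerase I shares with polymerase III. It stood at 23.9 and 26.1 CPM in DMSO, 25.3 and 26.2 CPM with GDC0068 and 18.5 and 18.6 CPM with Degrader. The DMSO and GDC0068 libraries overlapped, and both Degrader libraries lay below all others. Its log2 fold change was -0.43 under Degrader (edgeR adjusted p = 0.00700, SE 0.0855) and 0.04 under GDC0068 (edgeR adjusted p = 0.815). The difference between the drugs was -0.47 (SE 0.0856, 95% interval -0.66 to -0.29), with an edgeR adjusted p of 0.0511 that fell to 2.94e-04 with the replicate block. Its interval (chromosome 6, 43517089 to 43521513) covers 4425 bp and overlaps AL355802.3 on the opposite strand.

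The genes for factors that bring polymerase I to its promoter were closer to DMSO. UBTF, the upstream binding factor, gave 219.7 and 211 CPM in DMSO, 211 and 206 CPM with GDC0068 and 199.6 and 197 CPM with Degrader. Its Degrader libraries lay below DMSO, but the log2 fold change of -0.12 was not called (SE 0.0492, edgeR adjusted p = 0.126; 0.00876 with the replicate block). RRN3, the initiation factor that growth signals act on, gave 59.5 and 59.9 CPM in DMSO, 55.6 and 57.7 CPM with GDC0068 and 54.6 and 54.7 CPM with Degrader, with log2 fold changes of -0.13 and -0.08 that were not called (edgeR adjusted p = 0.132 under Degrader and 0.470 under GDC0068). With the replicate block RRN3 was called under Degrader (edgeR adjusted p = 0.0401). Of the 4 selectivity factor genes, TAF1A, TAF1B and TAF1C had log2 fold changes between -0.04 and 0.08 under either drug and none was called. TAF1D was called lower under Degrader, by -0.22 (edgeR adjusted p = 0.0431, SE 0.0645). It gave 94.3 and 108 CPM in DMSO, 99.3 and 96.2 CPM with GDC0068 and 85.8 and 88.6 CPM with Degrader. Its call was lost in 7 of the 17 alternative fits, and its interval overlaps SNORA40, a small nucleolar RNA, on the same strand.

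The genes for abundant nucleolar proteins fell together in transcription. Under Degrader all 4 genes of this group were called lower (7.88% of all genes tested). Under GDC0068 NPM1 and NOLC1 were called lower (1.88% of all genes tested). The group medians were -0.27 and -0.21. NPM1 encodes nucleophosmin, a histone and ribosome chaperone (chromosome 5, 171387852 to 171410884, plus strand), and had the most counts of the 40 genes in both DMSO libraries. It stood at 222 and 232 CPM in DMSO, 195 and 194 CPM with GDC0068 and 188 and 185 CPM with Degrader. The arms did not overlap, and Degrader lay lowest. The log2 fold change was -0.28 under Degrader (edgeR adjusted p = 0.00346, SE 0.0494) and -0.23 under GDC0068 (edgeR adjusted p = 0.0337, SE 0.0494). NOLC1, a scaffold that binds small nucleolar RNA particles, stood at 64.1 and 60.6 CPM in DMSO, 50.2 and 47.0 CPM with GDC0068 and 45.4 and 44.3 CPM with Degrader. It changed most in the group, by -0.48 under Degrader (edgeR adjusted p = 6.18e-04, SE 0.0598) and by -0.36 under GDC0068 (edgeR adjusted p = 0.0112, SE 0.0596).

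NCL, or nucleolin, gave 98.5 and 103 CPM in DMSO, 88.7 and 87.8 CPM with GDC0068 and 86.1 and 82.9 CPM with Degrader. It dropped by 0.25 (log2) under Degrader (edgeR adjusted p = 0.00692, SE 0.0505), and its value of -0.19 under GDC0068 had an edgeR adjusted p of 0.0597 (0.00121 with the replicate block). GNL3, or nucleostemin, a GTP-binding protein, fell by 0.21 under Degrader (edgeR adjusted p = 0.0423, SE 0.0610), from 44.4 and 45.1 CPM to 37.6 and 40.0 CPM. DESeq2 did not call GNL3 under Degrader (DESeq2 adjusted p = 0.116). GDC0068 left GNL3 at 42.2 and 41.7 CPM, which is a change of -0.09 (log2, edgeR adjusted p = 0.422). The NCL interval overlaps SNORA75 and SNORD20, and that of GNL3 overlaps SNORD69 and 3 SNORD19 copies. On the opposite strand, GNL3 also overlaps GLT8D1 and PBRM1.

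**Figure D3:**
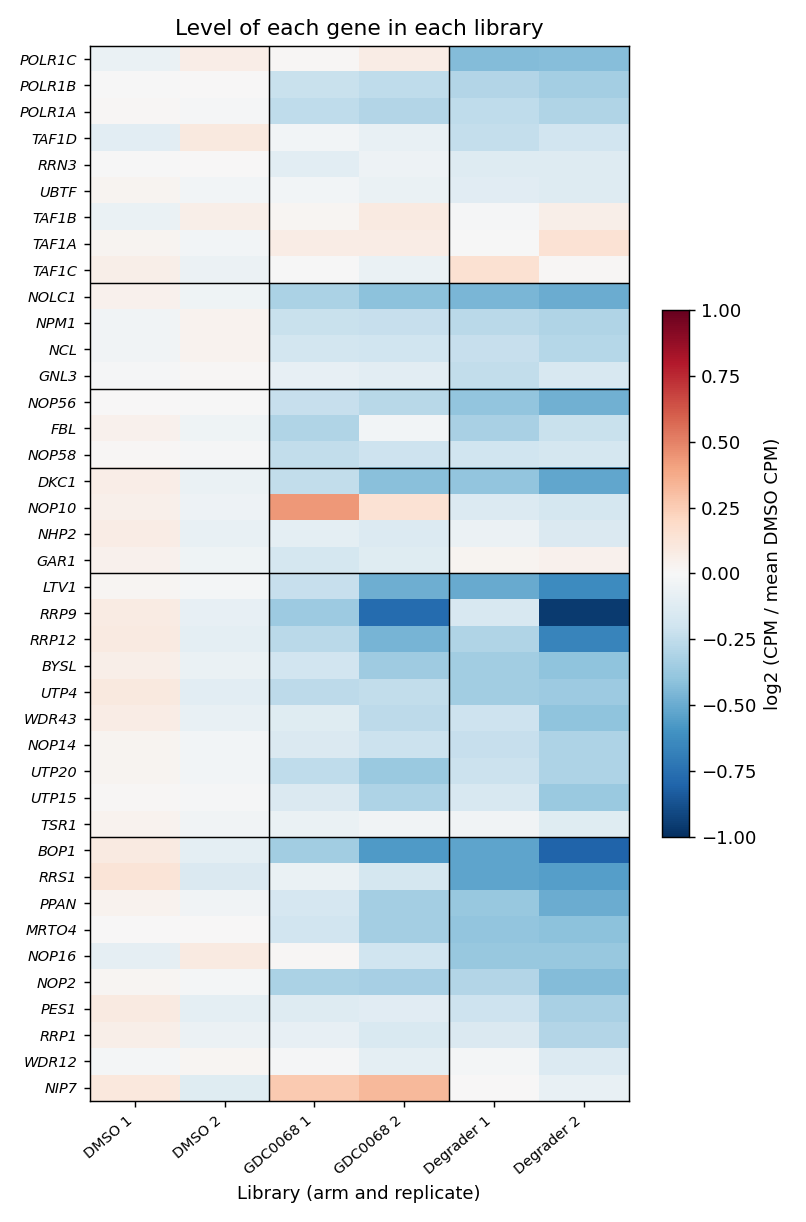
Colour shows log2 of each library's CPM over the mean DMSO CPM (blue lower, red higher) for the 40 genes (rows, grouped by role) in the 6 libraries (columns). The Degrader columns are mostly blue, and the GDC0068 columns are blue in fewer rows, with NOP10 and NIP7 red.

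In the box C/D group, the genes NOP56 and NOP58 were called lower under both drugs. Of all genes tested, 7.88% were called lower under Degrader and 1.88% under GDC0068. NOP56 and NOP58 encode the paired core proteins of these particles. FBL, the gene for the methyltransferase fibrillarin, was not called. NOP56 (chromosome 20, 2652632 to 2658393, plus strand) stood at 85.2 and 84.9 CPM in DMSO, 72.4 and 70.2 CPM with GDC0068 and 64.7 and 61.0 CPM with Degrader. The arms were ordered DMSO, GDC0068, Degrader without overlap. Its log2 fold change was -0.44 under Degrader (edgeR adjusted p = 5.38e-04, SE 0.0530), the smallest adjusted p in the set, and -0.26 under GDC0068 (edgeR adjusted p = 0.0273, SE 0.0528). The difference of -0.18 between the drugs was called only with the replicate block (edgeR adjusted p = 0.168 without and 0.00784 with it). NOP58 gave 65.7 and 64.9 CPM in DMSO, 55.1 and 56.7 CPM with GDC0068 and 56.8 and 57.9 CPM with Degrader. Here GDC0068 lay lowest, at -0.22 (log2, edgeR adjusted p = 0.0416, SE 0.0527) beside -0.19 under Degrader (edgeR adjusted p = 0.0335, SE 0.0525). FBL had fewer counts and more spread, with 19.9 and 18.7 CPM in DMSO, 15.7 and 18.9 CPM with GDC0068 and 15.4 and 16.5 CPM with Degrader, and its value of -0.27 under Degrader was not called (SE 0.107, edgeR adjusted p = 0.108; 0.0225 with the replicate block). The NOP56 interval overlaps 4 small nucleolar RNA intervals on its own strand, whose reads could be counted in either. The calls of NOP58 were lost in 9 of the 17 alternative fits under GDC0068 and in 5 under Degrader, DESeq2 among them for both drugs.

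Of the 4 genes of the box H/ACA group only DKC1, which encodes the pseudouridine synthase dyskerin, was called lower under Degrader. None was called under GDC0068. Of all genes tested, 7.88% and 1.88% were called lower under Degrader and GDC0068. DKC1 stood at 31.6 and 28.7 CPM in DMSO, 25.4 and 22.6 CPM with GDC0068 and 22.9 and 21.1 CPM with Degrader. Both drug arms lay below DMSO, and the drug arms overlapped. The log2 fold change was -0.46 under Degrader (edgeR adjusted p = 0.00764, SE 0.0925), and -0.33 under GDC0068 was not called (edgeR adjusted p = 0.0713; 0.00230 with the replicate block). Of the partners of dyskerin in the particle, NHP2 had -0.11 and -0.12 under Degrader and GDC0068, and GAR1 had 0.03 and -0.15, none of them called (edgeR adjusted p from 0.443 to 0.854). NOP10, the smallest of the core proteins, gave 7.10 and 6.62 CPM in DMSO, 9.28 and 7.59 CPM with GDC0068 and 6.23 and 6.07 CPM with Degrader. Its libraries lay above DMSO under GDC0068 and below DMSO under Degrader, though neither value was called, 0.29 (edgeR adjusted p = 0.256) and -0.16 (edgeR adjusted p = 0.492).

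Of the genes for factors that build the small subunit, 7 of 10 were called lower under Degrader (7.88% of all genes tested). These were UTP4, UTP20, WDR43, NOP14, RRP12, BYSL and LTV1. Under GDC0068 1 was called lower, UTP20 (1.88% of all genes tested). All 10 had log2 fold changes below 0 under both drugs, with medians of -0.33 and -0.26. The replicate block raised the calls under GDC0068 from 1 to 8, all lower. Over all genes tested it raised the share called lower from 1.88% to 8.91%. LTV1, which helps to export and finish the small subunit, stood at 26.2 and 25.4 CPM in DMSO, 21.9 and 18.4 CPM with GDC0068 and 18.2 and 16.7 CPM with Degrader. The arms did not overlap. The log2 fold change under Degrader, -0.57, was the largest decrease in the group (edgeR adjusted p = 0.00381, SE 0.100), and the value of -0.36 under GDC0068 was not called (edgeR adjusted p = 0.0698). The LTV1 interval overlaps AL049844.3 on the same strand. UTP20, a large scaffold of the early small-subunit particle, stood at 96.9 and 93.2 CPM in DMSO, 79.7 and 73.4 CPM with GDC0068 and 82.1 and 76.6 CPM with Degrader. Both drug arms lay below DMSO and overlapped each other, with -0.31 under GDC0068 (edgeR adjusted p = 0.0181, SE 0.0587) and -0.26 under Degrader (edgeR adjusted p = 0.0120, SE 0.0585).

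UTP4 and NOP14 belong to the same early particle. UTP4 dropped by 0.36 (log2) under Degrader (edgeR adjusted p = 0.00600, SE 0.0692), from 60.8 and 52.8 CPM to 44.6 and 44.2 CPM, and NOP14 fell by 0.27 (edgeR adjusted p = 0.00560, SE 0.0518), from 125 and 121 CPM to 105 and 99.0 CPM. GDC0068 gave 47.4 and 47.9 CPM for UTP4 and 111 and 106 CPM for NOP14, and neither change, -0.26 and -0.18, was called (edgeR adjusted p = 0.0657 and 0.0753). NOP14 overlaps its antisense gene NOP14-AS1. RRP9, a protein of the U3 small nucleolar RNA particle, gave 13.2 and 11.8 CPM in DMSO, 9.68 and 7.33 CPM with GDC0068 and 11.1 and 6.42 CPM with Degrader. Its values of -0.51 and -0.56 under Degrader and GDC0068 were not called (SE 0.207 and 0.209, edgeR adjusted p = 0.121 and 0.158), but the block brought both to a call (edgeR adjusted p = 0.00132 and 0.00176). Of the rest, RRP12, BYSL and WDR43 changed by -0.47, -0.37 and -0.31 under Degrader (edgeR adjusted p = 0.0120, 0.0173 and 0.0204), while UTP15 (-0.26) and TSR1 (-0.08) were not called (edgeR adjusted p = 0.121 and 0.418).

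Of the genes for factors that build the large subunit, 8 of 10 were called lower under Degrader (7.88% of all genes tested). The group median was -0.37. Under GDC0068 2 were called lower, BOP1 and NOP2 (1.88% of all genes tested), with a median of -0.12. The replicate block raised the calls under GDC0068 to 4 lower and 1 higher (8.91% and 8.87% of all genes tested). BOP1 forms a complex with PES1 and WDR12 that is needed to process the large-subunit RNA. It stood at 95.4 and 84.1 CPM in DMSO, 70.4 and 60.7 CPM with GDC0068 and 62.2 and 51.4 CPM with Degrader. DMSO lay above both drug arms, which overlapped each other. The BOP1 interval overlaps MIR7112 on the same strand and SCX on the opposite strand. BOP1 had the largest decrease of the 40 genes under Degrader, -0.66 (edgeR adjusted p = 0.00126, SE 0.0949), and -0.46 under GDC0068 (edgeR adjusted p = 0.0274, SE 0.0943), and the difference of -0.21 between the drugs was called only with the replicate block (edgeR adjusted p = 0.363 without and 0.00339 with it). Of its partners, PES1 fell by 0.26 under Degrader (edgeR adjusted p = 0.0324, SE 0.0734), and WDR12 stood at -0.08 (edgeR adjusted p = 0.582).

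NOP2, an RNA methyltransferase of the large-subunit particle, gave 42.1 and 41.1 CPM in DMSO, 33.4 and 33.1 CPM with GDC0068 and 33.9 and 30.8 CPM with Degrader. The drug arms overlapped below DMSO, with -0.36 under Degrader (edgeR adjusted p = 0.00554, SE 0.0689) and -0.32 under GDC0068 (edgeR adjusted p = 0.0306, SE 0.0689). PPAN stood at 47.7 and 45.5 CPM in DMSO, 41.3 and 36.8 CPM with GDC0068 and 35.9 and 32.9 CPM with Degrader. Its arms were ordered DMSO, GDC0068, Degrader without overlap, and it fell by 0.44 under Degrader (edgeR adjusted p = 0.00302, SE 0.0741), with -0.26 under GDC0068 (edgeR adjusted p = 0.0800). MRTO4, a placeholder on the growing large subunit, gave 37.97 CPM in both DMSO libraries, 33.3 and 30.04 CPM with GDC0068 and 28.9 and 28.5 CPM with Degrader. It fell by 0.40 under Degrader (edgeR adjusted p = 0.00417, SE 0.0728) and its value of -0.26 under GDC0068 was not called (edgeR adjusted p = 0.0688). RRS1, NOP16 and RRP1 changed by -0.54, -0.38 and -0.22 under Degrader (edgeR adjusted p = 0.00623, 0.0291 and 0.0485). The call of RRP1 was lost in 8 of the 17 alternative fits. NIP7 was not called under either drug, with -0.04 under Degrader and 0.29 under GDC0068 (edgeR adjusted p = 0.852 and 0.164). The RRS1 interval overlaps AC009879.2 on the same strand and AC009879.4 on the opposite strand, and that of PPAN overlaps SNORD105 on its own strand.

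Per length, the genes differed widely in nascent transcription. In DMSO, TAF1D (17.1 CPM per kb), NOP56 (14.8), UBTF (13.2), RRS1 (12.9), NPM1 (9.86) and NCL (9.20) had the highest density of reads, and TAF1B (0.508), WDR12 (0.676) and TAF1A (0.733) the lowest, all in CPM per kb of interval. These 3 genes were not called under either drug, but UTP20, the next sparsest (0.893 CPM per kb), was called lower under both. UBTF, among the densest, was called under neither.

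The genes called between the drugs with the replicate block were mostly in short intervals. Of the 9 genes called lower under Degrader than under GDC0068 with the replicate block, 8 (POLR1C, TAF1D, NOP56, NOP10, NOP16, RRS1, NIP7 and PPAN) have intervals under 6000 bp, a limit chosen after these calls were seen, and the other is BOP1. The set holds 9 such short intervals, and NHP2 was the only one of them not called. The median log2 fold change between the drugs was -0.29 for these 9 genes and -0.07 for the 31 longer ones. Because the limit was drawn from those calls, the lower median of the short class is not separate evidence. Under Degrader the short intervals had a median of -0.38 and the longer of -0.27, whereas under GDC0068 the short had -0.09 and the longer -0.22. Intervals of all genes showed the same division on a smaller scale. With the block, 8.89% of the 6639 short ones were called lower under Degrader than under GDC0068, and 3.57% of the 13263 longer ones. Called higher were 135 of the short ones and 866 of the longer ones. The medians were -0.07 and 0.01, and the cause of this division was not tested. Among the other genes of the pathway, 4 of 10 short intervals and 8 of 89 longer ones were called lower in the same fit.

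Most of the genes lay on the same side of DMSO in both experiments. Under Degrader, 35 of the 40 genes lay below DMSO in each experiment (37.5% of all genes tested), 1 lay above in each and 4 differed in sign, with medians of -0.25 and -0.29 in experiments 1 and 2. Of all 19902 genes tested, 7452 lay above in each and 4989 differed in sign. Under GDC0068, 30 lay below in each (32.5% of all genes tested), 5 above in each and 5 differed, with medians of -0.19 in both. Here 7142 of the 19902 genes tested lay above in each and 6299 differed in sign. Apart from the drugs, the experiments themselves differed in these genes: 22 of the 40 had a higher CPM in replicate 1 than in replicate 2 in all 3 arms, and 3 a lower one. Of all 19902 genes tested, 21.3% were higher in all 3 arms and 4074 genes were lower in all 3. RRP12 showed the difference between experiments plainly, with 106 and 92.6 CPM in DMSO, 82.4 and 71.9 CPM with GDC0068 and 80.6 and 62.6 CPM with Degrader. Its DMSO libraries differed by 0.19 on the log2 scale and its Degrader libraries by 0.36, and its change against DMSO under Degrader was -0.39 within experiment 1 and -0.56 within experiment 2.

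**Figure D4:**
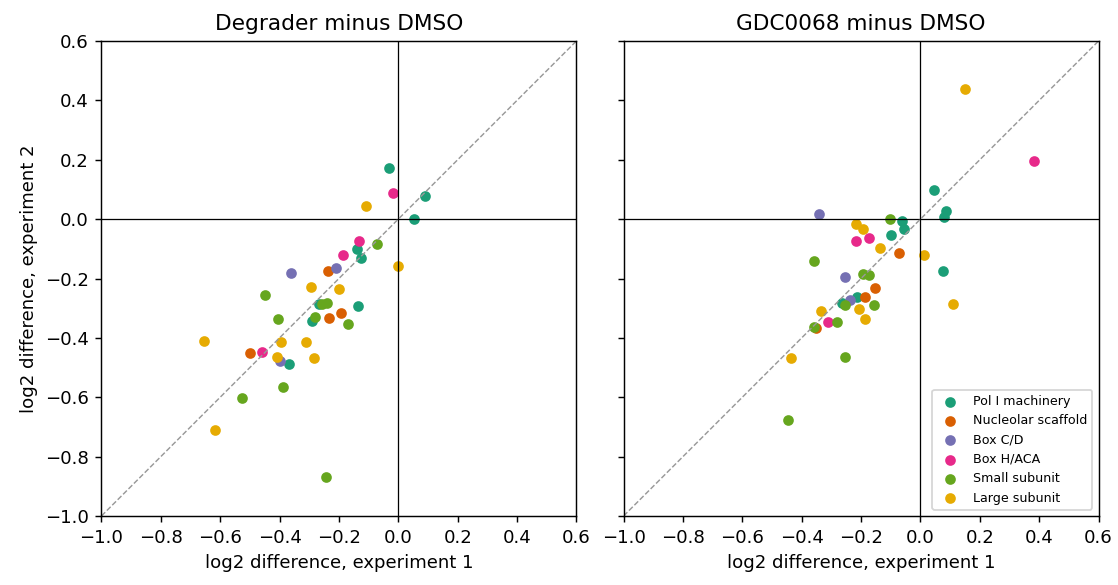
Each point is 1 of the 40 genes, placed by its log2 difference from DMSO in experiment 1 (horizontal axis) and experiment 2 (vertical axis), for Degrader (left) and GDC0068 (right), coloured by role; the dashed line marks equal values. Under Degrader 35 points lie below 0 on both axes, and under GDC0068 30 do.

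A wider list of 99 genes of polymerase I and ribosome assembly that are not among the 40, all of them tested, was examined beside them. Under Degrader edgeR called 32 of them lower and 0 higher (7.88% and 7.39% of all genes tested), at a median of -0.16 on the log2 scale. Under GDC0068 it called 10 lower and 1 higher (1.88% and 1.70% of all genes tested), with a median of -0.11. The replicate block raised these counts to 53 lower and 3 higher under Degrader (15.7% and 15.1% of all genes tested) and to 32 lower and 2 higher under GDC0068 (8.91% and 8.87%). Between the drugs edgeR called 0 of the 99, with 13 at an unadjusted p under 0.05 (14.1% of all genes tested), and 12 lower and 1 higher with the block (5.35% and 5.03% of all genes tested). The polymerase I part of this list has 14 genes. Among them are MYC, TTF1, BAZ2A and the subunits POLR2E, POLR2F, POLR2H, POLR2K and POLR2L. Of these 14, 3 were called lower under Degrader (TCOF1, POLR1G and POLR2L), at a median of -0.08. Under GDC0068 1 was called lower and 1 higher, at a median of -0.07. POLR2L had a log2 fold change of -0.35 under Degrader (edgeR adjusted p = 0.00488). TCOF1, or treacle, a nucleolar cofactor of polymerase I, stood at 143 and 136 CPM in DMSO, 112 and 108 CPM with GDC0068 and 111 and 107 CPM with Degrader. It fell under Degrader (-0.35, edgeR adjusted p = 0.00114) and GDC0068 (-0.34, edgeR adjusted p = 0.00817). POLR1G, a subunit particular to polymerase I that the table lists as CD3EAP, stood at 14.0 and 14.3 CPM in DMSO, 14.3 and 12.1 CPM with GDC0068 and 9.54 and 8.85 CPM with Degrader. Its log2 fold change was -0.62 under Degrader (edgeR adjusted p = 0.00433) and -0.10 under GDC0068 (edgeR adjusted p = 0.658), and the difference between the drugs was not called (-0.52, edgeR adjusted p = 0.0857; 0.00156 with the replicate block). POLR1H, another small subunit, listed as ZNRD1, was the gene called higher under GDC0068 (0.45, edgeR adjusted p = 0.0306).

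Of the other small-subunit factors, 11 of 41 were called lower under Degrader (7.88% of all genes tested) and 2 under GDC0068 (1.88%). Among those called under Degrader were DDX10 (-0.25, edgeR adjusted p = 0.00600), DHX37 (-0.41, edgeR adjusted p = 0.00768) and WDR36 (-0.30, edgeR adjusted p = 0.0186). Of the other large-subunit factors, 18 of 44 were called lower under Degrader (7.88% of all genes tested) and 7 under GDC0068 (1.88%). Those called under Degrader include GTPBP4 (-0.42, edgeR adjusted p = 0.00206), NLE1 (-0.49, edgeR adjusted p = 0.00225) and URB2 (-0.52, edgeR adjusted p = 0.00281). MYC, a transcription factor known to drive ribosome assembly genes, stood at 169 and 114 CPM in DMSO, 168 and 153 CPM with GDC0068 and 168 and 150 CPM with Degrader. The arms overlapped, with DMSO replicate 2 the lowest library. MYC had log2 fold changes of 0.16 under Degrader and 0.18 under GDC0068 that were not called (edgeR adjusted p = 0.451 and 0.498). The block had both called higher (edgeR adjusted p = 0.0199 and 0.0191), but the experiments did not agree. Within experiment 1 MYC differed from DMSO by -0.0066 under Degrader and -0.010 under GDC0068, and within experiment 2 by 0.39 and 0.42.

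The E-box CACGTG is a motif that MYC and related factors are known to bind. It was looked for in the promoters of the set because most of the 40 genes were lower under Degrader. RefSeq promoters of GRCh38.p14, from 250 bases before to 50 bases after a start site, were found for 35 of the 40 genes; those of BOP1, NOLC1, NOP58, RRP12 and RRS1 were not matched. The motif, which reads the same on both strands, was present for 14 of the 35 genes (40.0%) and for 12.4% of the 11119 tested genes with a promoter. Of the 15 occurrences in the set, 14 begin between 20 bases before and 50 bases after the start site, compared with 19.5% of the 1595 occurrences over all tested genes, a window set after the positions were seen. The 10 genes that hold it and were called lower under Degrader are shown as 30 bases each, 5′ to 3′ on the gene's strand, with the E-box in capitals, to show the bases around it.
BYSL: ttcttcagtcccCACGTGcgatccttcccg
GNL3: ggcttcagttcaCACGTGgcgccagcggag
LTV1: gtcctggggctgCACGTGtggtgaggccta
MRTO4: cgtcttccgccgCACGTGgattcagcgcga
NOP14: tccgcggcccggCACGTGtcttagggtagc
NOP2: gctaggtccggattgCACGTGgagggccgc
PES1: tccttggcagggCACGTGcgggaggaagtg
UTP20: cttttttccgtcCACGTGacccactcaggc
UTP4: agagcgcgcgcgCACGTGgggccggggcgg
WDR43: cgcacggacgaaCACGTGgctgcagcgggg
These lie at chr6:41921515-41921544 (+), chr3:52686026-52686055 (+), chr6:143843354-143843383 (+), chr1:19251807-19251836 (+), chr4:2963374-2963403 (-), chr12:6568242-6568271 (-), chr22:30591880-30591909 (-), chr12:101280083-101280112 (+), chr16:69132621-69132650 (+) and chr2:28894658-28894687 (+), in the order printed.

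For the genes with the E-box the median change (log2) was -0.29 under Degrader and -0.22 under GDC0068, and the 21 genes without it had -0.22 and -0.09. Over all tested genes the medians under Degrader were -0.02 with the motif and -0.01 without it. Called lower under Degrader were 10 of the 14 genes with it and 11 of the 21 without, where over all tested genes with a promoter the shares called lower were 12.6% with it and 9.39% without. FBL, GAR1, NOP10 and RRP9 carry the motif and were not called. The forkhead motif GTAAACA, searched on both strands because FOXO factors are held back by AKT, was found for 1 of the 35 genes, NOP14 (2.86%), and for 3.54% of the tested genes with a promoter.

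The product of polymerase I itself can be read in part, through intervals of the repeated ribosomal RNA genes on chromosome 21, which are so alike that a read cannot be placed on a single copy. RNA5-8SN1 (8439822 to 8439975) gave 402 and 324 CPM in DMSO, 505 and 494 CPM with GDC0068 and 263 and 222 CPM with Degrader. The arms did not overlap, with GDC0068 highest and Degrader lowest. The log2 fold change was -0.58 under Degrader (edgeR adjusted p = 0.00272, SE 0.0968) and 0.46 under GDC0068 (edgeR adjusted p = 0.0283, SE 0.0961). RNA5-8SN2 and RNA5-8SN3 gave -0.56 and -0.58 under Degrader and 0.44 each under GDC0068. FP236383.3 (8381264 to 8410645), which holds RNA5-8SN3 and was added after its values were seen, gave 22823 and 19758 CPM in DMSO, 25699 and 21948 CPM with GDC0068 and 15358 and 12889 CPM with Degrader. It fell by 0.59 under Degrader (edgeR adjusted p = 0.00563, SE 0.113), while the DMSO and GDC0068 libraries overlapped (0.16, edgeR adjusted p = 0.460; 0.00369 with the replicate block). Whether these reads come from polymerase I at work or from ribosomal RNA carried into the libraries was not tested.

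**Figure D5:**
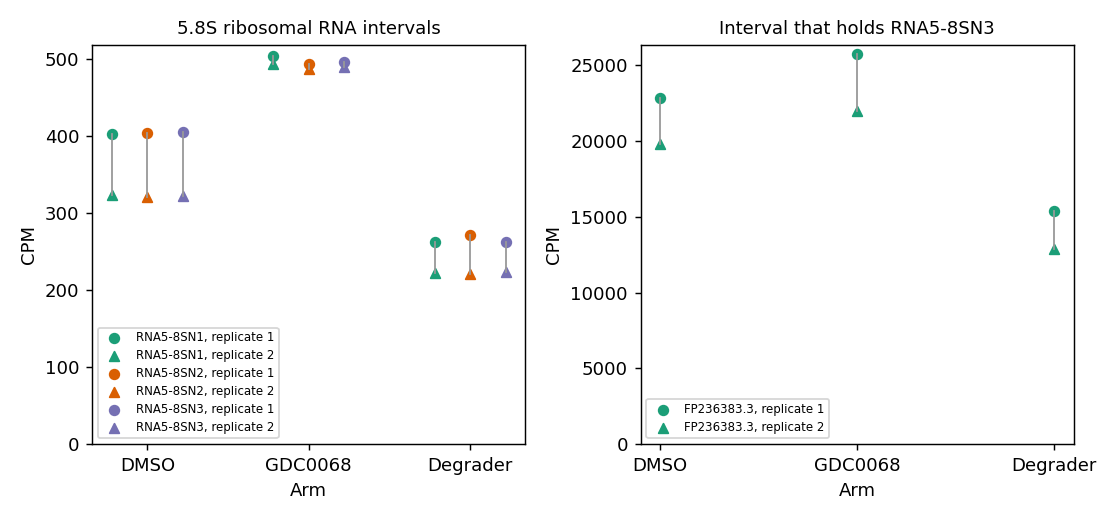
CPM (vertical axis, from 0) of the 3 intervals named RNA5-8SN (left) and of the interval that holds RNA5-8SN3 (right) in each arm; circles are replicate 1, triangles replicate 2, joined by a line. The GDC0068 libraries of RNA5-8SN1 stand at 505 and 494 CPM and the Degrader libraries at 263 and 222 CPM, on either side of DMSO.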

How the data were processed

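PRO-seq was analysed in 6 libraries of T47D cells, 2 per arm. The authors deposited a single table of raw counts, with a row for each gene interval. Per the submitters' processing notes, cutadapt 1.14, Bowtie 1.2.2, SAMtools 1.3.1, HISAT2 2.2.1 and limma were used, with the builds dm3, hg38 and GRCh38; their roles, the counting tool, the handling of duplicate reads and strand are not given in the sources used here, and each can change a count. Start coordinates were written counting from 1, and all 40 intervals overlapped the RefSeq gene of the same name in GRCh38.p14. Groups and replicate numbers came from the labels.

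In R 4.3.3 with edgeR 4.0.16, filterByExpr removed 431 of 20333 intervals (minimum count 10, minimum total 15), none of them among the 40, and trimmed mean of M-values factors lay between 0.997 and 1.00. All libraries entered a quasi-likelihood fit with a term per arm (3 residual degrees of freedom, common biological coefficient of variation 5.51%), and calls required p-values under 0.05 after Benjamini-Hochberg adjustment over the 19902 genes tested. Adjusted p-values without a named setting come from this edgeR fit. SE is the log2 fold change over the square root of F. Intervals at 95% use 11.6 degrees of freedom. CPM uses the scaled library sizes. Within-experiment differences use log2 CPM with a prior count of 2. Deviations from arm means correlated between same-numbered libraries with Pearson's r of 0.177, 0.204 and 0.220 across genes for the 3 pairs of arms, and the series describes 2 experiments, so the replicate number was also fitted as a block. Alternatives were DESeq2 1.42.0, limma-voom (limma 3.58.1), other factors and filters, and leaving out libraries. The fit was tested on simulated data. The genes, the lists and the rule for naming genes (all genes called between the drugs, up to 4 per role by smallest adjusted p, the extremes of each comparison, genes known for their role, and up to 3 called genes per wider list) were chosen with earlier results of these data known. RefSeq promoters were searched for motifs by exact match.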

Additional observations from a re-analysis of the deposited data

Results flagged for a closer look

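NOP10 was the only gene of the 40 whose libraries moved in opposite directions under the drugs, above both DMSO libraries under GDC0068 and below both under Degrader, in every library. Its log2 difference between Degrader and GDC0068 was -0.45 (edgeR adjusted p = 0.179; 0.0203 with the replicate block). The ribosomal RNA intervals differed between the drugs by edgeR: RNA5-8SN1 by -1.04, RNA5-8SN2 by -0.99, RNA5-8SN3 by -1.02 (adjusted p = 0.00177, 0.00309 and 0.00177) and FP236383.3 by -0.75 (adjusted p = 0.0246), all lower under Degrader and sharing reads between copies.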

How the results depend on the processing

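The 3 comparisons were repeated under 17 alternative settings. With the replicate block, which pairs the libraries by experiment, the genes called came to 31 for Degrader, 21 for GDC0068 and 9 between drugs, and calls over all genes rose too (15.7%, 8.91% and 5.35% lower). Leaving out single libraries gave 11 to 24 calls for Degrader (median log2 fold change -0.31 to -0.24), 0 to 7 for GDC0068 (-0.21 to -0.16) and 0 between drugs (-0.12 to -0.057). The GDC0068 median was -0.19 with 4 libraries compared, DESeq2, RLE factors, no filter, or short and ribosomal RNA intervals left out, and -0.17 with upper-quartile factors. Between drugs DESeq2, limma-voom, robust estimation, upper-quartile factors, no filter and leaving out short and ribosomal RNA intervals each called 1 gene. Under Degrader, POLR1A, NPM1, NOLC1, NOP56, LTV1, BOP1, PPAN and MRTO4 were called in all 17 settings, and each GDC0068 call was lost in at least 2.

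Some values that were not called changed sign. Leaving out single libraries moved GAR1 for Degrader from -0.00732 to 0.077, and for GDC0068 POLR1C from -0.023 to 0.11, TAF1C from -0.10 to 0.021 and TAF1D from -0.15 to 0.052. Between drugs it moved POLR1A from -0.019 to 0.020, FBL from -0.24 to 0.036, NHP2 from -0.023 to 0.056, RRP9 from -0.39 to 0.39 and NOP2 from -0.11 to 0.027. POLR1A between drugs was 0.000968 with DESeq2, 0.000987 with RLE factors and 0.0024 with no filter. The cause was not tested. The doses differ, no spike-in counts were used, the comparisons share libraries, and with 2 libraries per arm no permutation test over libraries could pass 0.05. At 177 counts, the lowest among the 40 genes, counting error alone is 7.52%.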
